A study of Drosophila melanogaster with 2 samples.

Results

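Among nuclei dissected with adult *Drosophila* nephrocytes, 819 of 13868 carried a strong sarcomere transcript signature and no transcript of the heart factors *tin*, *H15* and *mid*. A nucleus was taken where at least 3 of 8 sarcomere genes (*Mhc*, *sls*, *up*, *wupA*, *Mlc1*, *Mlc2*, *Prm* and *Zasp66*) had a UMI (unique molecular identifier, 1 counted RNA molecule), where these genes together held at least 4 times their pooled share of UMIs, and where the heart factors had 0 UMIs. They are called sarcomere-rich nuclei here. Their working name was body muscle, but the data fitted that name only in part. Most contractile genes were high. *bin*, known from visceral muscle, and *org-1*, known from visceral, alary and some somatic muscles, were also high, though found in only 6.59% and 16.1% of the nuclei, and the flight muscle genes *fln* and *TpnC4* had 0 UMIs. No muscle type is therefore assigned.

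The study profiled nuclei of the fly kidney. The nephrocyte series holds 1 female and 1 male sample of adults aged 5 to 7 days, kept at 18 °C, with the background w1118 and the transgenes Dot-Gal4 and UAS-GFP.nls in both and no control group. *Dot-Gal4* drives a nuclear green fluorescent protein in nephrocytes, which guided the dissection of tissue pooled from 50 flies per tube. The nuclear sort used a DNA dye, so other cells attached to the tissue could enter each library. The UMI tables were deposited for the series and not under a sample record, and they are called the larger table (7890 nuclei) and the smaller table (5978 nuclei). The larger was deposited under a name with the word female and the smaller under one with the word male. These names were not used to assign a sample, and values are compared between tables and not between sexes. With 1 library behind each table there are no replicates, and no test over samples was possible. All intervals are exact 95% intervals and cover counting error only.

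A sarcomere is the contractile unit of striated muscle. Thick filaments of myosin pull on thin filaments of actin, which are anchored at Z-discs, and calcium released through the ryanodine receptor acts on troponin and tropomyosin to permit the pull. Flies have multinucleate somatic muscles, striated visceral muscles around the gut and other organs, alary muscles that suspend the heart, and the heart muscle itself, and these types share most contractile genes while differing in transcription factors and receptors.

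The larger table held 442 sarcomere-rich nuclei, 5.60% of its nuclei (interval 5.10% to 6.13%), and the smaller table held 377, or 6.31% (5.70% to 6.95%). The sarcomere part of the rule was met by 1085 nuclei, of which 266 had a UMI of a heart factor. The 266 are called heart-marker nuclei below, 126 in the larger table and 140 in the smaller. Sarcomere-rich nuclei were shallow. Their median was 1021.5 UMIs in the larger table and 1005 in the smaller, against 2572.5 and 3044 in heart-marker nuclei. In a deeper nucleus a heart factor is more easily detected, and the part of this gap in the split was not tested. The tables shared 14 barcodes, of which 2 were carried by sarcomere-rich nuclei, and no barcode was sarcomere-rich in both.

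The 8 genes that set the rule are given as a description. They held 1.38% to 33.0% of the UMIs of each chosen nucleus, with a median of 3.70%. The last nucleus inside the threshold had 1.377% and the first outside had 1.375%, with 35 nuclei within 10% of it on the inside and 34 on the outside. All 8 markers were detected in 141 nuclei and only 3 in 45. *sls*, which encodes the giant Z-disc protein kettin and fly titin, gave 27287 of the 47265 marker UMIs and was detected in every sarcomere-rich nucleus. Its level was 22807 UMIs per 1000000 UMIs (CPM) in the larger table and 22732 in the smaller. *Mhc*, the only muscle myosin heavy chain gene of the fly, was at 6814 and 5693 CPM, with 630 of its 7532 UMIs in 1 nucleus. Without that nucleus the larger table gave 5886 CPM.

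**Figure D1:**
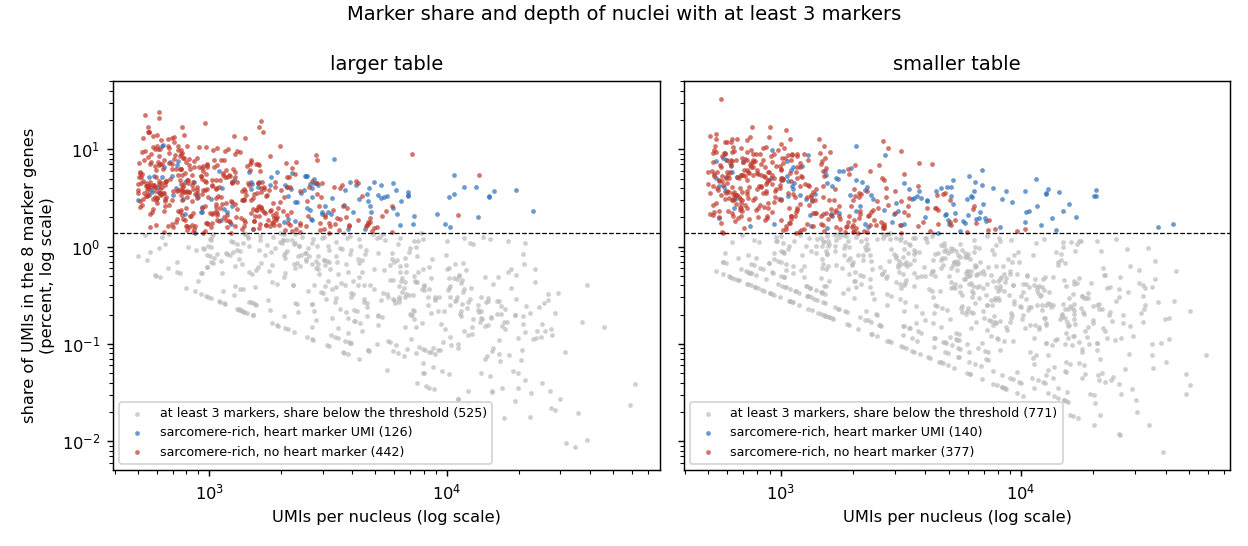
Each point is a nucleus with at least 3 of the 8 sarcomere genes detected, plotted by its UMIs (x axis, log scale) and by the percent of those UMIs in the 8 genes (y axis, log scale), with the tables in separate panels. Sarcomere-rich nuclei (red, 442 and 377) lie above the dashed threshold and mostly toward low depth, heart-marker nuclei (blue, 126 and 140) reach higher depth, and the grey nuclei fall below the threshold.

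Beyond the rule, 287 of 11725 genes with at least 20 UMIs (2.45%) were at least 3-fold higher in sarcomere-rich nuclei than in all other nuclei in each table, with the counting interval of the ratio clear of 1 in each. Only 14 genes (0.119%) were lower by the same rule. The median ratio over all genes was 0.819. These counts describe nuclei that were chosen on part of the same profile and are not a test. All other nuclei include the heart-marker nuclei, which met the sarcomere part of the rule. Heart-marker nuclei held 37224 of the 80808 marker UMIs outside the sarcomere-rich nuclei, which lowers the ratios of contractile genes. The gene groups below were chosen with values of these data known, and their members are read against the 2.45% and 0.119% of all genes.

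The thick filament group was the most complete. All 4 of its genes outside the rule were higher, with ratios of 10.2 to 15.4. *Mf*, which encodes the thick filament protein myofilin, was at 5733 CPM in the larger table and 4667 in the smaller, against 278 and 406 in all other nuclei. Its ratios were 20.6 (19.8 to 21.5) and 11.5 (11.0 to 12.0). *bt*, the giant kinase projectin, was at 7557 and 8681 CPM against 556 and 809, and it was detected in 800 of the 819 nuclei. In the nuclei without the sarcomere signature, *Mf* was at 164 and 237 CPM and *bt* at 244 and 396. The myosin light chain kinase gene *Strn-Mlck* and the M-line gene *Obsc* were also higher, the latter 10.9-fold (9.37 to 12.6) and 10.5-fold (8.90 to 12.3).

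On the thin filament, 9 of 11 genes outside the rule with enough UMIs were higher. Muscle tropomyosin *Tm2* was at 756 and 666 CPM, and troponin C *TpnC73F* at 772 and 631, each more than 10-fold above the other nuclei. *TpnC25D* and *TpnC47D*, other troponin C genes, were higher too. Of the muscle actin genes, *Act57B* and *Act87E* were called higher. *Act57B*, a muscle actin of embryonic and larval muscles that continues in the adult, had 304 UMIs in the larger table and 198 in the smaller, and *Act87E* had 222 and 62. The leg and jump muscle actin *Act79B* had 1 UMI, and the flight muscle actin *Act88F* had 2 UMIs in a single nucleus. *TpnC41C* had 3 UMIs, while *TpnC4* and *fln*, both of the indirect flight muscles, had none. A count of 0 allows a level of up to 4.73 CPM in the larger table and 5.31 in the smaller, taking 3 UMIs as the limit. The pointed-end cap *tmod* and the thin filament elongation factor *sals* were higher, at 1150 and 1250 CPM for *tmod*, with 90 of its 706 UMIs in the smaller table in 1 nucleus.

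At the Z-disc, *Mlp60A* and *Mlp84B*, the muscle LIM proteins, and the actin crosslinker *Actn* were higher, 3 of 5 genes. *Mlp60A* was at 1490 and 1070 CPM against 50.9 and 48.7, ratios of 29.3 (26.7 to 32.1) and 21.98 (19.8 to 24.4). *Mp20*, a calponin-like muscle protein outside the lists, was at 1243 and 726 CPM against 30.5 and 29.5, ratios of 40.7 (36.5 to 45.5) and 24.6 (21.6 to 28.1), and had a UMI in 399 nuclei. *l(2)efl*, a small heat shock protein found at muscle Z-discs, was 36.1-fold (29.7 to 44.0) and 27.0-fold (21.0 to 34.6) higher. None of 10 genes for integrin attachment, none of 16 for energy metabolism and none of 6 for myoblast fusion reached 3-fold in either direction in both tables, which for lists of this size is near the 2.45% of all genes. Talin, *rhea*, was the highest of the attachment genes, with ratios of 2.07 and 2.06. The dystrophin gene *Dys* was at 0.775 and 0.913 times the level of all other nuclei, while its sarcoglycan partners *Scgalpha* and *Scgbeta* were called higher on only 9 and 7 UMIs.

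**Figure D2:**
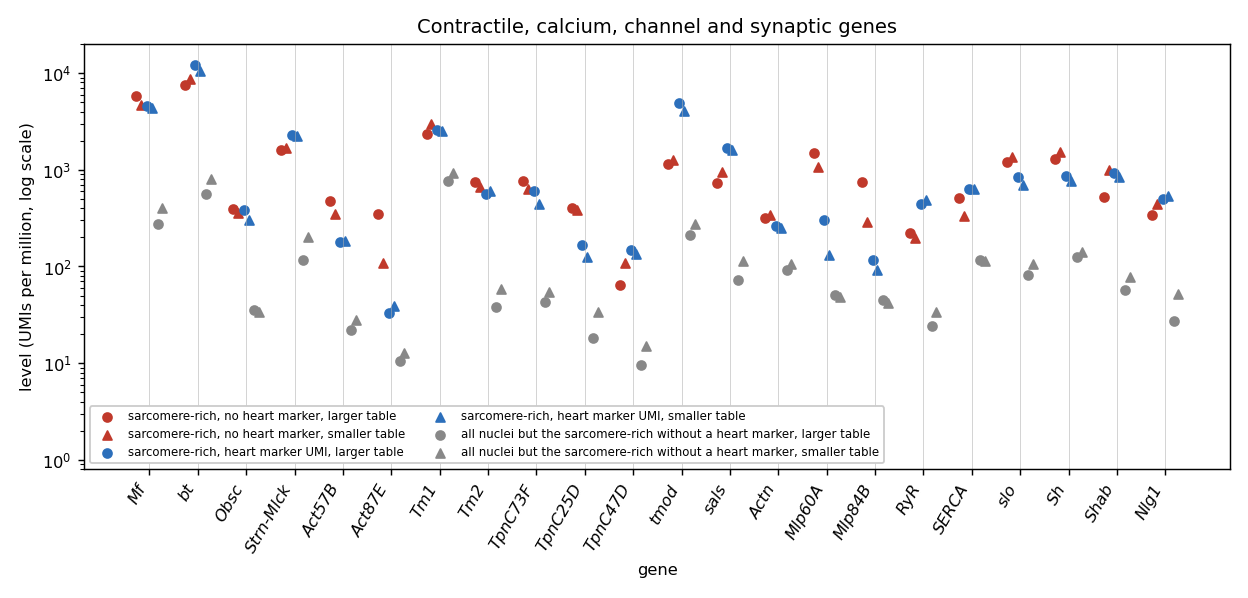
Levels in CPM (y axis, log scale) of 22 contractile, calcium, channel and synaptic genes (x axis) in sarcomere-rich nuclei (red), heart-marker nuclei (blue) and all nuclei except the sarcomere-rich (grey), each summed over 1 table and drawn without error bars. Red and blue lie above grey for every gene shown, red above blue for *Act57B*, *Act87E*, *Mlp60A* and *Mlp84B*, and blue above red for *tmod* and *RyR*.

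Among genes that couple excitation to contraction, few of the calcium-handling list were called. The other nuclei include the heart-marker nuclei. The median ratio of the calcium-handling genes to heart-marker nuclei was 0.473, against 1.54 over all genes. The part of this in the low number of calls was not tested. Of 9 calcium-handling genes, *RyR*, the calcium release channel of the sarcoplasmic reticulum, was the 1 gene called higher, at 221 and 197 CPM against 23.98 and 33.9. The calcium pump *SERCA* was 4.37-fold (3.88 to 4.92) and 2.94-fold (2.52 to 3.41) higher and missed the rule in the smaller table. The L-type channel *Ca-alpha1D* differed between tables, 6.83-fold against 2.42-fold. Potassium channels were called more often, 5 of 11 excitability genes. The calcium-activated *slo* reached 1198 and 1343 CPM against 82.5 and 105, and *Sh*, the Shaker channel, 1305 and 1541 against 124 and 140. *Shab*, *Shal* and *SK* were higher as well. *Sur*, a sulfonylurea receptor listed here as a heart gene, was 21.2-fold (15.6 to 28.9) and 10.8-fold (7.84 to 14.8) higher.

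At the neuromuscular junction, 3 of 9 genes were higher. *Nlg1*, a postsynaptic neuroligin, was at 341 and 441 CPM against 27.1 and 51.4. The glutamate receptor subunits *GluRIIA* and *GluRIIC* were called on 25 and 35 UMIs, and *GluRIIE*, also with 35 UMIs, was 18.0-fold higher in the larger table and 2.66-fold in the smaller. Any of the 5 GluRII subunits was detected in 89 sarcomere-rich nuclei, 10.9% (8.82% to 13.2%), against 38.3% of heart-marker nuclei and 3.06% of the remaining nuclei. After each nucleus was thinned to 500 UMIs the shares were 5.13%, 7.14% and 0.516%.

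Receptors for neuropeptides and amines were also called among the genes outside the contractile machinery. Of 50 such genes with enough UMIs, 16 were higher and 0 lower, against 2.45% and 0.119% of all genes. This list was set after values were seen, so the count is a description and not support for a trait of receptors. *CCAP-R*, the receptor of crustacean cardioactive peptide, had 320 UMIs in the larger table (505 CPM) and 264 in the smaller (468 CPM), against 13.9 and 20.3 CPM elsewhere. Its ratios were 36.3 (30.7 to 42.9) and 23.0 (19.6 to 27.1). *MsR1*, a receptor for the muscle-inhibiting peptide myosuppressin, was at 72.6 and 338 CPM against 2.54 and 7.74, ratios of 28.5 (18.6 to 43.8) and 43.7 (34.9 to 54.9). It was found in 57 nuclei, 14 in the larger table and 43 in the smaller. Its paralog *MsR2* was 5.20-fold and 17.6-fold higher.

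Other receptors in this group covered several peptide families. *sNPF-R*, the receptor of short neuropeptide F, had 134 UMIs in 75 nuclei, and *CCHa1-R* had 113 UMIs in 83. *PK2-R2*, a pyrokinin receptor, was 24.99-fold (15.5 to 39.9) and 21.5-fold (11.1 to 40.8) higher on 54 UMIs. The receptors *Lgr4* and *rk*, the latter the receptor of the tanning hormone bursicon, had 113 and 130 UMIs. Receptors for trissin, allatostatin A, allatostatin C, ecdysis-triggering hormone and FMRFamide were called on 21 to 73 UMIs each. Among amine receptors, *Octalpha2R*, an octopamine receptor, was at 622 and 850 CPM against 46.2 and 59.2 and was found in 331 nuclei. *5-HT1A*, a serotonin receptor, was called on 29 UMIs in 17 nuclei. Several other receptors of the list, among them *CapaR*, *Dh44-R1* and *PK2-R1*, had 0 UMIs in sarcomere-rich nuclei.

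None of 16 muscle transcription factor genes met the rule in both tables. For a list of this size that is near the 2.45% and 0.119% of all genes, so it is not read as a result about these factors. *Mef2*, the general activator of muscle genes, was at 614 and 703 CPM against 435 and 509, only 1.41-fold (1.27 to 1.56) and 1.38-fold (1.25 to 1.53) higher. *hth*, a homeobox cofactor that sets fibrillar flight muscle fate, differed between the tables. In sarcomere-rich nuclei it was at 2649 CPM in the larger table and 2961 in the smaller, so these levels were close, while all other nuclei had 1095 and 278 CPM. The ratios were 2.42 (2.30 to 2.54) and 10.7 (10.1 to 11.3). *abd-A*, the Hox gene of the mid abdomen, was at 156 and 282 CPM against 79.5 and 35.7, so both kinds of nuclei differed between the tables, in opposite directions. *Ubx* was lower than elsewhere without reaching 3-fold, at 0.633 and 0.708 times the other nuclei.

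Of 5 visceral muscle genes, *org-1*, *bin* and *vn* were called, and of the alary muscle factors *org-1* and *tup* only *org-1* was, with *tup* at 1.16 and 1.59 times the other nuclei. *org-1*, a T-box gene of founder cells in visceral, alary and some somatic muscles, was at 182 and 218 CPM against 11.8 and 5.24, and was detected in 132 nuclei. *bin*, the FoxF gene of visceral mesoderm, was at 45.8 and 70.8 CPM against 2.81 and 2.22, ratios of 16.3 (9.95 to 26.1) and 31.9 (20.01 to 50.9), on 69 UMIs in 54 nuclei. *vn*, the neuregulin-like ligand of the EGF receptor, was also higher, at 447 and 416 CPM, and *aos*, the secreted EGF receptor inhibitor, at 186 and 145. In the fibroblast growth factor pathway the receptor *htl* (178 and 218 CPM against 9.96 and 13.4) and its adaptor *stumps* were higher. The ligand *ths* was 1 of the 14 genes that were lower, at 12.6 and 26.6 CPM against 52.0 and 88.1. The nuclei it was compared with include the heart-marker nuclei, where *ths* was at 716 and 932 CPM. They held 345 and 666 UMIs of *ths*, which raises the level it was compared with. A comparison with only the nuclei without the sarcomere signature was not made. The call of *ths* as lower is therefore not read as a difference from those nuclei. The secreted signal *Wnt4* was higher in both tables, 4.63-fold (4.02 to 5.31) and 4.604-fold (3.96 to 5.32). *Wnt6* reached 3.59-fold and 2.98-fold and missed the rule.

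**Figure D3:**
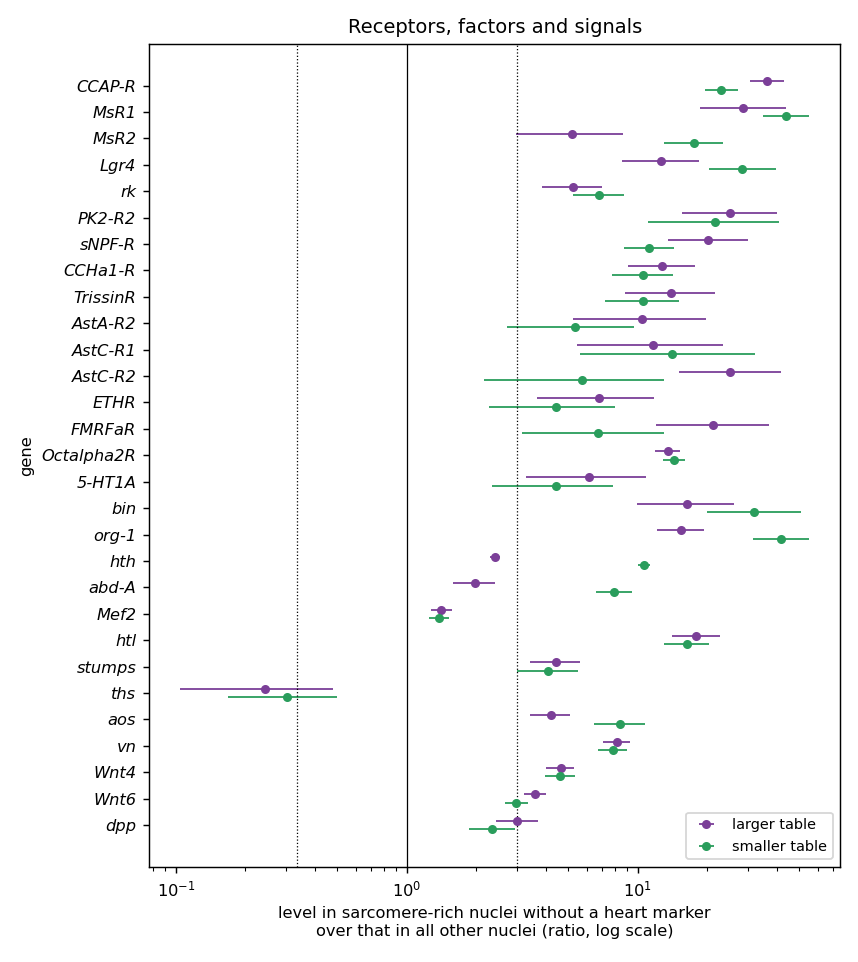
Ratio of the level in sarcomere-rich nuclei to that in all other nuclei (x axis, log scale) for 29 receptor, factor and signal genes, with exact 95% counting intervals, in the larger table (purple) and the smaller table (green). Dotted lines mark 3-fold in either direction. *CCAP-R* (36.3 and 23.0) and *MsR1* (28.5 and 43.7) lie far to the right in both tables, *hth* (2.42 and 10.7) and *abd-A* (1.97 and 7.89) differ between tables, and *ths* is the only gene to the left. All other nuclei include the heart-marker nuclei, where *ths* was at 716 and 932 CPM.

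The 15 largest pooled ratios among called genes with at least 100 UMIs were taken outside the lists set first, so genes such as *Mlp60A* are not among them. These 15 genes include the receptors *MsR1*, *CCAP-R* and *Lgr4*, and several have no known role in muscle that could be given here. *dcma* had 1133 UMIs, with ratios of 30.3 (27.0 to 33.9) and 21.4 (19.1 to 23.9). *CG43897* had 990 UMIs in 409 nuclei, with ratios of 36.7 and 18.9. *CG31821*, *CG34396*, *CG43155*, *CG13954*, *CG42458* and *CG12105* had 127 to 431 UMIs each and pooled ratios of 19.4 to 26.4. *CanA1*, a catalytic subunit of the calcium-dependent phosphatase calcineurin, was 30.5-fold and 22.4-fold higher, and the calcium-binding protein *Cbp53E* 23.6-fold and 16.8-fold. All 527 UMIs of *Cbp53E* came from 80 nuclei, so its level was set by a small subset.

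Transcripts of other tissues were present. Of the sarcomere-rich nuclei, 63 (7.69%) also met an analogous rule for another cell type list, most often oenocyte (19), fat body (12) and hemocyte (12), against 21.7% of the nuclei without the sarcomere signature and 3.38% of heart-marker nuclei. The 7 fat body genes summed to 5367 and 5918 CPM, with *Fbp1* at 0, against 9571 and 10565 CPM in the nuclei without the signature. The other lists summed to lower levels than in those nuclei in both tables, except for neuron genes (229 and 177 CPM against 162 and 121, with *VGlut* at 0) and for accessory gland genes in the larger table (1.58 against 0.945 CPM). The glial gene *repo* and the enterocyte gene *Jon99Ci* were also at 0. *Pxn*, a hemocyte peroxidasin, and *sr*, a tendon cell factor, were the genes of these lists that were called higher, the first 3.29-fold and 3.34-fold. Doublets and free RNA were not removed, and their part was not tested. The 63 nuclei had a median marker share of 2.08%, against 3.86% for the other 756. Without the 63 nuclei, 292 genes (2.49%) were higher, of which 281 were among the 287, and 35 were lower, of which 9 were among the 14.

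The sarcomere-rich nuclei were also split into 4 bins of near equal size by marker share, a measure taken from contractile genes. *apolpp*, the fat body lipoprotein precursor, was at 4061 and 3626 CPM in the lowest bin (marker share 1.38% to 2.23%), at 4805 and 3596 in the next, and at 736 and 543 in the highest (6.19% to 33.0%), against 5822 and 5354 in the nuclei without the signature. *Mp20* went from 572 and 260 CPM to 2608 and 1377. *bt*, *Tm2* and *TpnC73F* also had their highest level in the highest bin in both tables. *hth* reached 4781 and 6877 CPM there, from 1937 and 1040 in the lowest. *abd-A* was concentrated in the highest bin, with 482 and 1096 CPM against 59.7 and 99.3 in the lowest. *dcma* and *CCAP-R* had another course, highest in the middle bins. *dcma* was at 623, 1330.4, 1641 and 382 CPM from the lowest to the highest bin of the larger table, and at 553, 1496, 1471 and 191 in the smaller. Median depth fell from 1695 UMIs in the lowest bin to 779 in the highest, and the bins are cut from a share, so these are ranges and not cell types.

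**Figure D4:**
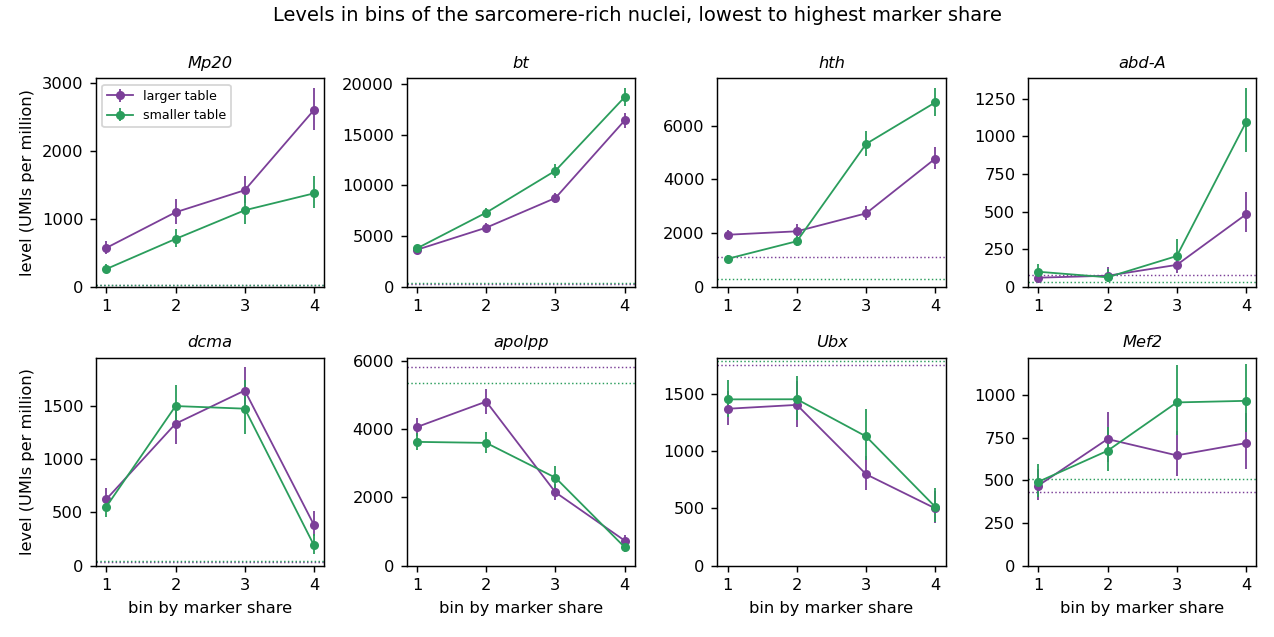
Level (y axes, CPM, from 0) of 8 genes in bins of the sarcomere-rich nuclei, ordered from the lowest to the highest marker share (x axes), in the larger (purple) and smaller (green) table, with exact 95% counting intervals. Dotted lines give the nuclei without the sarcomere signature. *Mp20*, *bt*, *hth* and *abd-A* end highest, *apolpp* and *Ubx* lowest, and *dcma* peaks in the middle bins.

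The sarcomere-rich nuclei were not uniform in receptors and factors. Groups were set after their values were seen, by UMIs of a few genes, and are described without a test. At least 2 UMIs of *dcma* and *CCAP-R* together were found in 206 nuclei (25.2%, interval 22.2% to 28.3%), 116 in the larger table and 90 in the smaller. The same was true of 1.88% of heart-marker nuclei and 1.55% of the rest, and after thinning to 500 UMIs the shares were 19.2%, 0.752% and 0.321%. An *org-1* UMI was found in 132 nuclei (16.1%), an *abd-A* UMI in 112 (13.7%), a UMI of *MsR1* or *MsR2* in 88 (10.7%) and a *bin* UMI in 54 (6.59%). In the nuclei without the signature these shares were 1.74%, 6.16%, 1.43% and 0.555%, and in heart-marker nuclei 2.26%, 27.4%, 2.26% and 1.13%. *abd-A* was thus detected more often in heart-marker nuclei, also after thinning (11.3% against 7.69%). No group took in 322 nuclei (39.3%), and 156 fell into more than 1.

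Nuclei with *dcma* and *CCAP-R* were the largest group, in which an interval clears 1 more readily. They had 79 of 4443 genes (1.78%) at least 3-fold higher and 35 (0.788%) lower in both tables than the other sarcomere-rich nuclei. *bin* was in this group, with 59 of its 69 UMIs and 44 of its 54 nuclei, at 222 CPM against 10.7 in the other sarcomere-rich nuclei. *htl* was at 685 CPM against 57.9, a ratio of 11.8. The potassium channel *Elk* was at 2385 against 194 CPM, and *Tdc1*, a tyrosine decarboxylase that makes tyramine, at 237 against 17.2. *aos*, the collagen receptor homolog *Ddr* and *CG31821* were higher as well. *chinmo*, a BTB zinc finger factor, was at 33.9 against 371 CPM, *abd-A* at 30.1 against 268, and *MsR1* at 18.8 against 249. *sls*, a rule gene, was at 11993 CPM in this group, with 26118 CPM in the *org-1* nuclei described next, and the median marker share was 3.46%. The *bin* nuclei, most of them in this group, had 27 genes higher (0.608%) and 24 lower (0.54%) than the other sarcomere-rich nuclei.

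Nuclei with an *org-1* UMI lacked this profile. *dcma* had 0 UMIs in all 132 of them, which allows up to 2.27% of nuclei with a UMI at this depth, whereas 181 of the 687 other sarcomere-rich nuclei (26.3%, 23.1% to 29.8%) had one. Median depth was 1331.5 UMIs in the *org-1* nuclei and 972 in the other sarcomere-rich nuclei. This group overlapped the *dcma* and *CCAP-R* group in 14 nuclei, through *CCAP-R*. *Tdc1* and *Ddr* were also at 0 UMIs there, *PK2-R2* had 1 UMI, and *bin* was found in 2 nuclei. Only 7 of 4444 genes (0.158%) were higher in both tables and 23 (0.518%) lower. *Wnt4* was at 1002 CPM against 210, with 35 of its 251 UMIs in 1 nucleus. *dpr10*, an immunoglobulin protein of synapse matching, had 69 UMIs in these nuclei against 31 in all others, *slp2*, a forkhead factor, 13 against 9, and the ion transport peptide gene *ITP* 112 against 108.

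Nuclei with an *abd-A* UMI overlapped the *org-1* nuclei, with 30 in both, 22.7% of the *org-1* group and 26.8% of the *abd-A* group. They had the highest median marker share of these groups, 6.62%. Here 9 of 4444 genes (0.203%) were higher and 22 (0.495%) lower. *ETHR*, the receptor of ecdysis-triggering hormone, had 22 of its 29 UMIs in these nuclei, a ratio of 12.2. The homeobox genes *E5* and *ems* had 51 of 88 and 21 of 35 UMIs there, and *Lgr4* 56 of 113. *dcma* was at 81.6 CPM against 1168, and *CCAP-R* at 61.2 against 597. Groups with *MsR1* or *MsR2* (5 genes higher, 0.113%, and 10 lower, 0.225%) and with a GluRII subunit (1 higher and 1 lower, 0.0225% each) had fewer calls. Of the *MsR1* or *MsR2* nuclei, 26 were in the larger table and 62 in the smaller. The cell adhesion gene *tei* was at 678 CPM there against 74.3. *hth* was at 5821 CPM but was not among the 5 genes called higher. In the highest marker-share bin of the smaller table *hth* was at 6877 CPM.

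**Figure D5:**
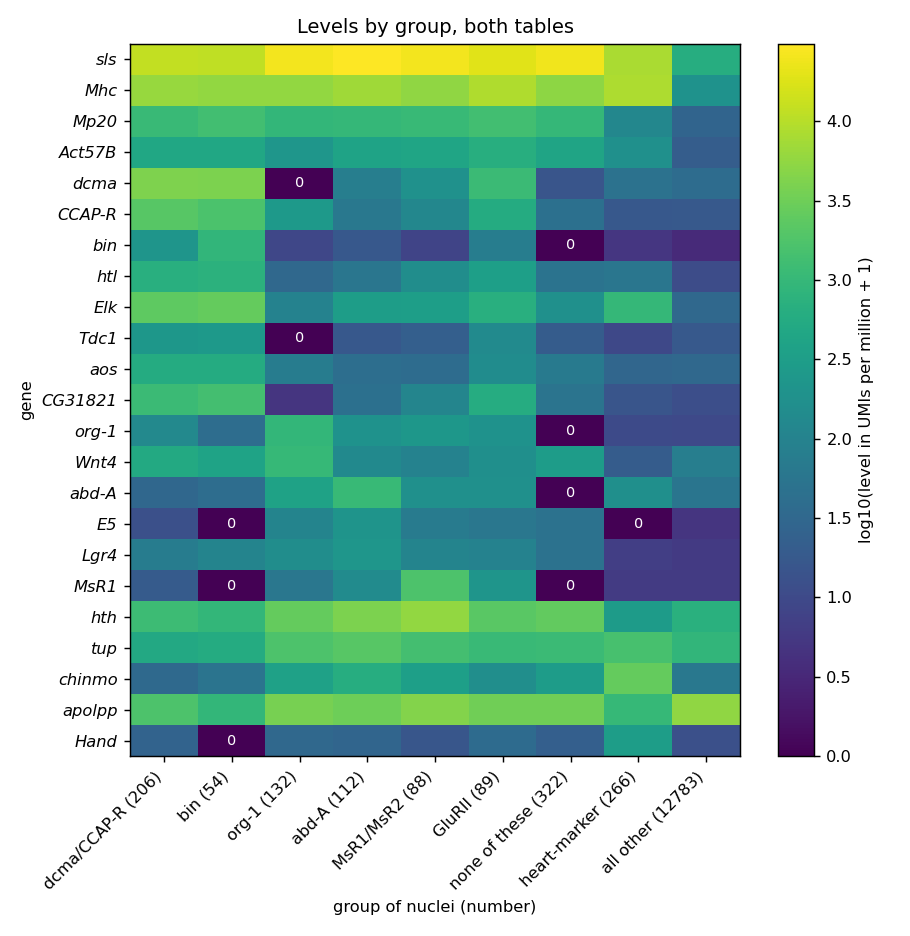
Level, as log10 of CPM plus 1 (colour), of 23 genes (rows) in groups of sarcomere-rich nuclei set by UMIs of the named genes, in those in none of these groups, in heart-marker nuclei and in all other nuclei (columns, with the number of nuclei), over both tables. A 0 marks no UMI, and the last column holds the nuclei without the sarcomere signature. The *dcma*/*CCAP-R* and *bin* columns share high *htl*, *Elk*, *Tdc1* and *aos*, and the *org-1* column has no UMI of *dcma* or *Tdc1*. The genes that set a column are high in it by choice.

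Heart-marker nuclei were the nearest comparison, since they met the same sarcomere rule. Levels were compared in each table, with 218 of 5564 genes (3.92%) at least 3-fold higher in sarcomere-rich nuclei and 93 (1.67%) lower. The median ratio over all genes was 1.54. The stress RNA *lncRNA:Hsromega* took 9.59% and 9.52% of the UMIs of heart-marker nuclei and 0.793% and 1.34% of those of sarcomere-rich nuclei, and it counts in the total to which every CPM is scaled. The part of this RNA and of depth in the differences was not tested. With each nucleus thinned to 500 UMIs, 75 genes were higher and 56 lower. The rule itself fixed *tin*, *H15* and *mid*.

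The contractile genes mostly did not reach 3-fold between these nuclei. *Mf*, *Tm1* and *Obsc* were at ratios of 1.18, 1.04 and 1.12 to heart-marker nuclei, below the median of 1.54 over all genes. The median of the thick filament genes was 0.919. Of the 4 tested thick filament genes outside the rule, 0 met it, which is near the 3.92% and 1.67% of all genes. *Mlp60A* and *Mlp84B* were higher in sarcomere-rich nuclei, 6.47-fold (5.64 to 7.44) and 5.25-fold (4.32 to 6.43). *tmod* was at 4890 and 4031 CPM in heart-marker nuclei, 3.65-fold above sarcomere-rich nuclei, and *Argk1*, arginine kinase, 3.63-fold. The potassium channel *SK* was 4.36-fold higher in heart-marker nuclei.

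Of 34 receptor genes tested against heart-marker nuclei, 8 were higher and 4 lower, and of 11 muscle transcription factor genes 2 were higher and 1 lower. Over all genes 3.92% were higher and 1.67% lower, with a median ratio of 1.54. The receptor list was set after values were seen, so these counts are a description. *hth* was at 2649 and 2961 CPM against 407 and 207 in heart-marker nuclei, *org-1* at 182 and 218 against 8.30 and 9.79, and *CCAP-R* at 505 and 468 against 20.8 and 12.6, a pooled ratio of 30.7 (19.5 to 51.4). *MsR1* had 237 UMIs in sarcomere-rich and 6 in heart-marker nuclei. The homeobox gene *E5* had 88 and 0 UMIs, at least 29.3-fold higher taking 3 UMIs for the 0 over both tables, *ems* 35 and 0, at least 11.7-fold, and the TRP cation channel genes *trpl* and *Trpgamma* 49 and 27 against 0, with 31 of the *trpl* UMIs in 1 nucleus. *Wnt4*, *Wnt6* and *dpp*, secreted patterning signals, were 19.5-fold, 9.33-fold and 10.1-fold higher. In the other direction, *Hand*, a bHLH factor of heart and pericardial cells, had 29 UMIs against 379, *Doc3*, a T-box gene of the heart, 1 against 52, and *lbl*, a ladybird homeobox gene of the heart, 6 against 147. *ths* had 23 against 1011 UMIs, a ratio of heart-marker to sarcomere-rich nuclei of 44.0 (29.2 to 69.8), and *Mp*, the multiplexin collagen, 159 against 3727. The heart receptors *Proc-R* and *Dh31-R*, of the peptides proctolin and diuretic hormone 31, were 6.54-fold and 7.69-fold higher in heart-marker nuclei, and the receptor tyrosine kinase *Alk* 7.63-fold.

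Between the tables, 176 of 4445 genes (3.96%) were at least 3-fold higher in sarcomere-rich nuclei of the larger table and 90 (2.02%) in those of the smaller, with 1 library on each side. The largest differences were of genes known from other tissues. *Yp1*, a yolk protein of the adult female fat body, had 1321 UMIs in the larger table, spread over 274 sarcomere-rich nuclei, and 0 in the smaller, at least 392.3-fold higher taking 3 UMIs for the 0. *lncRNA:roX1*, an RNA of the male dosage compensation complex, was at 618.6 CPM in the larger table and had 7721 UMIs in the smaller, with at least 1 UMI in 77 of 442 and 372 of 377 nuclei. Seminal fluid genes such as *Mst57Da* (0 and 114 UMIs) and *Dup99B* (0 and 57) were in the smaller table. All of these went the same way in the other nuclei, at 3217 against 0.399 CPM for *Yp1*.

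Of the receptor list, 2 genes were called higher in the larger table and 2 in the smaller. None of the muscle transcription factor, thick filament or Z-disc genes was called, and *Act87E* was the thin filament gene called. The genes of each list with enough UMIs for this comparison were not counted. These calls are therefore not read against the 3.96% and 2.02% of all genes, nor as a result about the lists. *Act87E* was at 350 and 110 CPM, and 10.6 and 12.8 in the other nuclei. *MsR1* had 46 and 191 UMIs and *MsR2* 18 and 75. *Abd-B*, the posterior Hox gene, had 74 UMIs in the larger table and 10 in the smaller, and the neighbouring RNA *lncRNA:iab8* had 75 and 3, a ratio of 22.3 (7.33 to 110). *Antp* had 102 and 7, of which 39 lay in 1 nucleus. *AstC-R2* had 31 and 7. Counts of this size rest on few nuclei and, with no replicate, a difference between the tables cannot be told apart from a difference between the 2 dissections.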

How the data were processed

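The authors deposited unnormalized UMI counts, a row for each gene and a column for each barcode, produced with Cell Ranger. No source used here gives its version, the genome build or the annotation. Columns name nuclei and no sample, so both tables were used as pooled tables. Depth was 19107558 UMIs in the larger and 18130609 in the smaller, with at least 500 UMIs per barcode. FlyBase identifiers were matched to symbols, leaving 68 of 15423 genes unmatched, and 300 of 305 listed genes were found. Doublets were not removed.

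Counts were summed per table and group and divided by the UMIs of that group. The call needed a ratio of 3 in each table, an exact conditional Poisson interval clear of 1, and 20 UMIs. Shares have Clopper-Pearson intervals. This step was tested on simulated data. Alternatives are given in the closing section. Python 3.11.15, numpy 2.4.6, scipy 1.17.1 and pandas 2.3.3 were used. Members and lists were chosen with earlier results of these data known, and the receptor, Wnt, epidermis and growth factor lists and the groups by *dcma*, *org-1* and the like after values were seen. Genes named are the rule genes, the lists and the 15 largest pooled ratios with 100 UMIs outside the lists set first. Also named are the 10 largest in each direction against heart-marker nuclei and, with 50 UMIs, between tables. Others were chosen after their values were seen. Sequences and coordinates are not used here.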

Additional observations from a re-analysis of the deposited data

Results flagged for a closer look

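For 2 genes the sarcomere-rich nuclei lay above all other nuclei in the larger table and below them in the smaller, and this difference between the tables was not tested. *CG15353* had a ratio of 22.7 in the larger table and 0 in the smaller, with 91 and 0 UMIs in sarcomere-rich nuclei. Those UMIs came from 5 nuclei, and 65 of them from 1. *CG15040* had a ratio of 5.47 in the larger table and 0 in the smaller, on 3 and 0 UMIs.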

How the results depend on the processing

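The number of sarcomere-rich nuclei was 819. It was 917 with a marker share of 3 times the pooled share, 647 with 6 times, 1085 without the requirement on heart factors, 753 after thinning to 500 UMIs before the rule (682 of them among the 819) and 756 without nuclei that met another cell type list, an alternative chosen after seeing the data. The 287 genes higher than in all other nuclei stayed between 232 and 389 over all alternatives. The 14 lower genes became 47 with 6 times the pooled share, 109 without the heart requirement, 60 after thinning, 35 without nuclei that met another list, 81 at 2-fold, 6 at 4-fold, 29 with the mean of shares per nucleus, 146 in the larger table alone and 257 in the smaller alone. Against heart-marker nuclei, 218 higher genes became 75 after thinning, 670 at 2-fold and 102 with at least 100 UMIs, and 93 lower genes became 56 after thinning and 151 at 2-fold. Between the tables, 176 and 90 genes became 339 and 176 at 2-fold, 28 and 14 with at least 100 UMIs, 61 and 31 after thinning, and 110 and 57 with 6 times the pooled share. Of 695 ratios of single genes recomputed under an alternative, 499 stayed within the counting interval of the reported value and 196 moved outside it. None whose interval was clear of 1 crossed it. The 499 include ratios that could not move, since a changed fold or minimum of UMIs leaves the ratio as it was. The same holds for the mean of shares against heart-marker nuclei, where the pooled ratio was kept. The 499 therefore overstate how stable the ratios were. No paired analysis was possible because each table is 1 library. Depth limits genes with few UMIs, and doublets, free RNA and the split by heart factors remain as limits.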
